A study of Mus musculus with 2 samples.

Results

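Neurons spend most of their energy on moving ions back across their membranes, and the genes described here encode the pumps and exchangers that do this work. The members were chosen by gene symbol: genes of the Atp1a, Atp1b, Atp2a, Atp2b, Atp2c, Slc4a, Slc8a, Slc9a, Slc12a and Slc24a families with at least 1 protein-coding transcript. The rule found 56 of 55536 mouse genes in the deposited tables. Of these, 53 encode transporters or their subunits in 10 families, and 3 are only named after a transporter: Slc4a1ap, Slc9a3r1 and Slc9a3r2. All measured values come from total RNA-seq of hippocampal tissue from adult female 5xFAD/CAST mice aged 8 to 10 months, supplied by The Jackson Laboratory. The 5xFAD line is known for human transgenes that carry familial Alzheimer's disease mutations and are driven in neurons by the Thy1 promoter, and CAST is a wild-derived strain. All samples carry this genotype, so the data form 1 group of 2 biological replicates, with no control group analysed here. The labels give the replicates separate tissue records but the same donor record, so whether they come from separate animals is not settled, and each SD may measure technical spread. Reads of CAST alleles were assigned with a reference transcriptome of mm10, and the effect of that on each member was not tested.

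The Na,K-ATPase exports sodium and imports potassium at the cost of ATP, and the gradients it builds drive most of the exchangers listed here. Calcium is cleared from the cytosol by plasma membrane pumps (PMCA, the Atp2b genes), pumps of the endoplasmic reticulum (SERCA, Atp2a) and of the Golgi (SPCA, Atp2c), and by sodium-driven exchangers of the Slc8 and Slc24 families. Bicarbonate transporters (Slc4) and sodium/hydrogen exchangers (Slc9) set pH, and cation-chloride cotransporters (Slc12) set the chloride level on which inhibition by GABA depends.

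The catalytic pumps of the P-type share an aspartate that is phosphorylated in each transport cycle. The motif searched was the 5 residues aspartate-lysine-threonine-glycine-threonine, in the annotated reading frame on the coding strand. For each member only the most abundant complete coding transcript was searched. It was found in 13 of 13 catalytic pump genes and in 0 of the 43 other members. Over all genes with a complete coding transcript, 44 of 21754 held it (0.202%). There, any complete transcript of the protein-coding class could hold it, which is a wider search than that of the members. Each window is 36 bases of coding sequence from the GENCODE M21 transcripts on mm10, from the most abundant complete transcript of each pump, with the motif codons in capitals. They are given for the leading pumps of the plasma membrane and of the Golgi.
Atp2b1, chr10:98999805-98999840, plus strand: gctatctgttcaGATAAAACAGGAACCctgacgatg
Atp2c1, chr9:105445269-105445304, minus strand: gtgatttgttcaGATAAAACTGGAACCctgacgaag
Each window lies within 1 coding exon. The encoded motif is the same in both.

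Levels are given in TPM, a read share scaled by transcript length, which can be compared between genes within a library. A gene was called detected where each library gave it 1 TPM or more. Of the 56 members, 42 were detected (75%), where 60.2% of all nuclear protein-coding genes were. The median level over all 56 members was 19.7 TPM, and over all nuclear protein-coding genes it was 4.24 TPM. Among detected genes the medians were 39.0 TPM for members and 15.3 TPM for all. Of the members, 11 had a mean level of at least 100 TPM, 25 lay between 10 and 100 TPM, and 6 were detected below 10 TPM. Together the members held 1.04% ± 0.0161 (SD, n = 2) of the TPM of nuclear protein-coding genes, and Na,K-ATPase subunits made up 54.4% ± 0.780 of that member total. In the order of the 42 detected members, 29 of 41 neighbouring pairs had values that did not overlap between libraries, and 12 pairs overlapped.

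**Figure D1:**
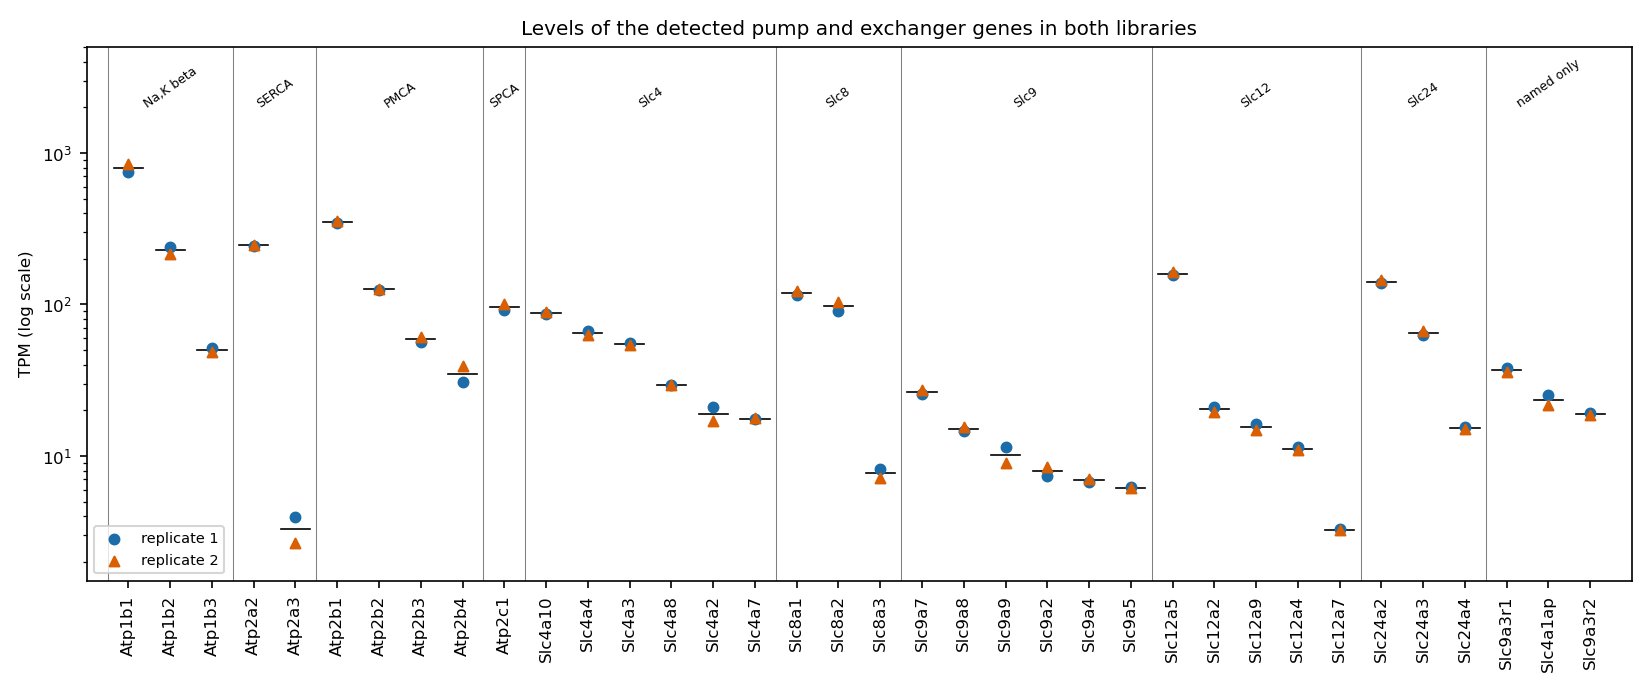
Level in TPM (log axis) of 36 of the 42 detected members, by family, with a circle for replicate 1, a triangle for replicate 2 and a line at their mean. Atp1b1 stands above the other members drawn, and the symbols of the libraries lie close together for most of them.

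The catalytic alpha subunits of the Na,K-ATPase summed to 1392 TPM in replicate 1 and 1499 TPM in replicate 2, the highest sum of the 10 families in the gene table. By kallisto the beta subunits had the highest sum. Atp1a4, the isoform of sperm, had 0 and 1 read. As in any bulk sample, fewer cells of a type and less RNA per cell cannot be told apart. The posterior SD of the count, as deposited, was under 1 read in both libraries for 54 of the 56 members, including those with few or no reads. Atp2a2 was an exception, with 2.44 and 2.16 reads. The share over all genes was not counted.

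The beta subunits, which carry the alpha subunit to the membrane, were led by Atp1b1. It had 746 TPM in replicate 1 and 847 TPM in replicate 2, and held 74.1% ± 2.94 of beta subunit TPM. Atp1b2, also known as the glial adhesion molecule AMOG, had 238 and 217 TPM, or 21.2% ± 2.49. Atp1b3 had 51.9 and 48.7 TPM, or 4.69% ± 0.442. Atp1b4, which is known in placental mammals as a muscle protein that no longer serves the pump, had 0 reads in both libraries, which allows up to 0.108 and 0.0933 CPM (mapped counts scaled to library size). The 4 beta subunits were 38.6% to 49.1% identical in protein sequence between any pair, as translated from the reference transcripts.

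The sum of beta subunit TPM over that of alpha subunits was 0.745 in replicate 1 and 0.742 in replicate 2. In the kallisto-layout table, a second quantification of the same libraries, this ratio was 1.02 ± 0.00612 (SD, n = 2). The alpha sum was 1446 ± 75.8 TPM in the gene table and 1259 ± 49.7 TPM by kallisto, and the beta sum was 1075 ± 53.9 and 1284 ± 43.0 TPM. Short beta subunit transcripts were among those that differed. The incomplete 628-base transcript Atp1b1-203 had 95.8 and 121 TPM in the RSEM-layout table, but 291 and 419 TPM by kallisto. The full-length Atp1b1-201 had 639 and 708 TPM in the RSEM-layout table, and 537 and 584 TPM by kallisto. Atp1b2-203 was listed at 0 in the RSEM-layout table and had 38.7 and 37.5 TPM by kallisto.

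Among the calcium pumps, Atp2b1 (PMCA1), the most widely expressed plasma membrane pump, had the highest level, with 345 TPM in replicate 1 and 353 TPM in replicate 2. The gene lies at chr10:98914406-99026143 on the plus strand. Atp2b2 (PMCA2), a fast pump of neurons, had 124 and 127 TPM. Atp2b3 (PMCA3), also neuronal, had 56.7 and 61.1 TPM, and Atp2b4 (PMCA4) had 30.8 and 39.1 TPM. The 4 pumps kept this order in both libraries without overlap. Their shares of PMCA TPM were 61.4% ± 0.747, 22.1% ± 0.347, 10.4% ± 0.248 and 6.14% ± 0.845 (SD, n = 2), in the same order. Protein identity between PMCA pairs was 74.6% to 83.5%.

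Atp2a2 (SERCA2), which refills the endoplasmic reticulum, held 98.2% ± 0.649 of SERCA TPM, with 244 and 247 TPM. Atp2a3 (SERCA3), known from blood and endothelial cells, had 3.98 and 2.65 TPM. Atp2a1, the pump of fast skeletal muscle, was not detected, with 1.60 and 0.64 TPM from 40 and 20 reads. The skeletal muscle markers fixed for this tissue were mostly near 0, and 3 of 8 were detected, among them Pvalb, which interneurons also express. Atp2c1 (SPCA1) of the Golgi had 91.7 and 101 TPM, while Atp2c2, known from secretory epithelia, had 0.90 and 1.00 TPM.

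The sodium/calcium exchangers trade sodium entering the cell for calcium leaving it. Slc8a1 (NCX1) had 116 TPM in replicate 1 and 123 TPM in replicate 2, and Slc8a2 (NCX2) had 90.7 and 104 TPM. The ranges of the pair did not overlap, and Slc8a1 held 53.2% ± 1.02 of the family. Slc8a3 (NCX3) was lower, with 8.23 and 7.12 TPM. The potassium-dependent exchangers were led by Slc24a2 (NCKX2), the neuronal form, with 138 and 145 TPM. Slc24a3 (NCKX3) had 62.5 and 66.5 TPM and Slc24a4 (NCKX4) 15.6 and 15.1 TPM. Slc24a1 of rod photoreceptors and Slc24a5 of pigment cells were not detected. The summed level of the Slc24 family was 1.01 times that of the Slc8 family in replicate 1 and 0.969 times in replicate 2, so the order of these sums turned between libraries. The summed PMCA level was 2.59 and 2.47 times that of Slc8.

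**Figure D2:**
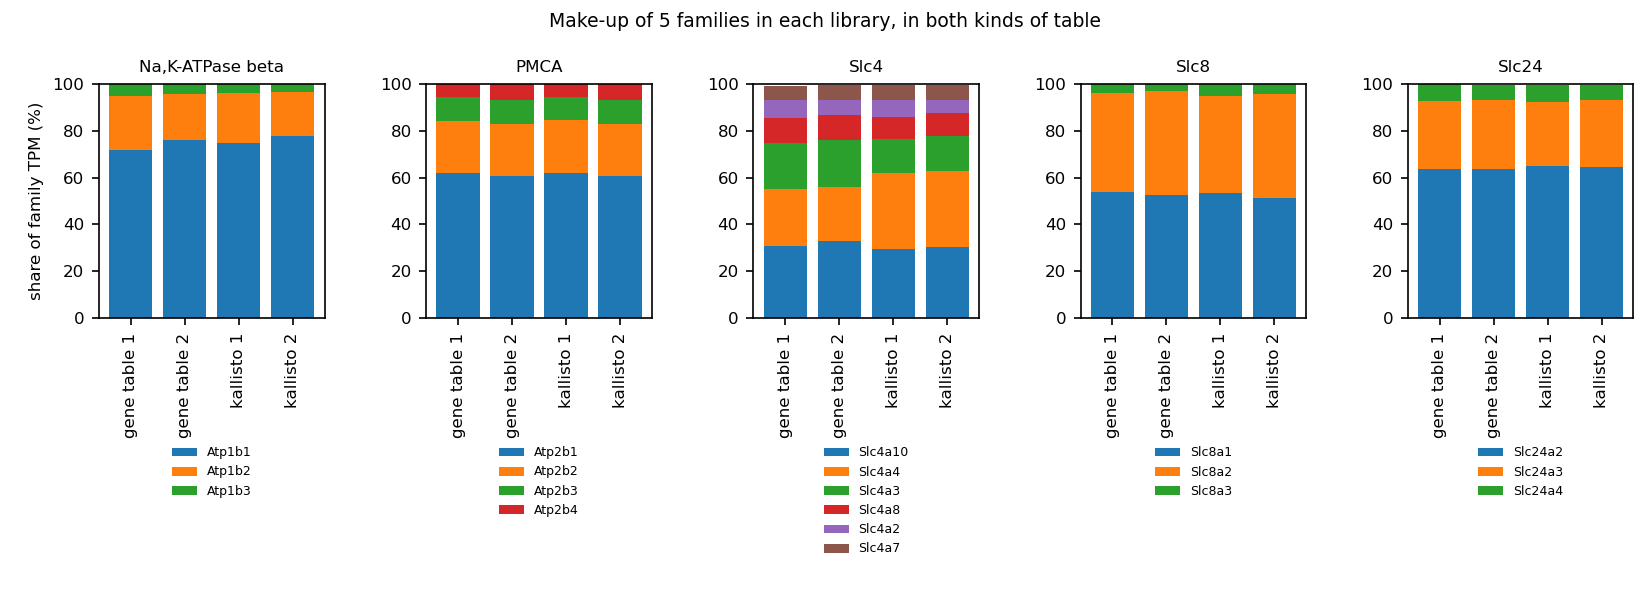
Share of each gene in its family's TPM (percent, stacked bars), for 5 families, in replicates 1 and 2 of the gene table and of the kallisto-layout table. Genes under 1% of a family are left out of the bars. The leading gene is the same in all 4 columns for every family drawn except Slc4, where the table decides between Slc4a10 and Slc4a4.

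Among the cation-chloride cotransporters, Slc12a5 (KCC2), which extrudes chloride from mature neurons, had 157 TPM in replicate 1 and 162 TPM in replicate 2. The gene lies at chr2:164960802-164999731 on the plus strand. It held 63.4% ± 1.36 of the family. Slc12a2 (NKCC1), which brings chloride in, had 21.1 and 19.6 TPM. The ratio of Slc12a5 to Slc12a2 was 7.47 and 8.30, or 7.88 ± 0.591 (SD, n = 2). Slc12a2 is not confined to neurons, so this ratio over the whole tissue is not the ratio within a neuron. Slc12a4 (KCC1) had 11.4 and 10.9 TPM. Slc12a7 (KCC4) had 3.27 and 3.24 TPM. Slc12a9, a member with no settled transport role, had 16.4 and 14.9 TPM. The kidney cotransporters Slc12a1 and Slc12a3, and Slc12a8, were below 0.5 TPM in each library of the gene table.

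The bicarbonate transporters were more evenly spread. Slc4a10 (NCBE), a sodium-driven bicarbonate importer of neurons and choroid plexus, had 85.9 and 89.2 TPM. Slc4a4 (NBCe1), the electrogenic cotransporter known from astrocytes, had 67.1 and 63.2 TPM. Slc4a3 (AE3), a chloride/bicarbonate exchanger of neurons and heart, had 55.2 and 54.1 TPM. These 3 genes kept their order in both libraries of the gene table. In the kallisto-layout table Slc4a4 led with a mean of 92.2 TPM, above Slc4a10 at 83.9 TPM, so the first place of the family depends on the table. Slc4a8 (NDCBE), a sodium-driven chloride/bicarbonate exchanger of nerve terminals, had 29.3 and 29.5 TPM. Slc4a2 (AE2) had 20.9 and 17.1 TPM and Slc4a7 (NBCn1) had 17.4 and 17.7 TPM, with overlapping ranges. Slc4a1, the red cell anion exchanger, had 1 and 5 reads. Slc4a5 (NBCe2), known from the choroid plexus, had 1.14 and 0.50 TPM, and Slc4a9 and Slc4a11 were also not detected.

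Of the 9 sodium/hydrogen exchangers, 8 were detected. Slc9a7 (NHE7) of the trans-Golgi network had 25.5 and 27.2 TPM. Slc9a8 of the Golgi had 14.7 and 15.5 TPM and Slc9a9 of endosomes had 11.4 and 8.93 TPM. Slc9a2 had 7.35 and 8.46 TPM, Slc9a4 had 6.71 and 7.07 TPM and Slc9a5, which is known from brain, had 6.24 and 6.11 TPM. Slc9a3, the exchanger of kidney and gut, was not detected, with 0.89 and 0.63 TPM. Its scaffold proteins were: Slc9a3r1 (NHERF1) had 37.8 and 35.7 TPM and Slc9a3r2 (NHERF2) had 19.3 and 18.7 TPM. Slc4a1ap (kanadaptin), a nuclear protein first found as a partner of Slc4a1, had 25.2 and 21.8 TPM.

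Several members encode more than 1 protein form, and the transcript tables give levels for their transcripts. A member was said to have a second isoform when at least 2 protein-coding transcripts each held at least 20% of the gene's TPM in both libraries. Incomplete transcripts and transcripts with an identical coding sequence count here, so this is not a count of protein forms. Atp2b1 and Slc9a7, for example, had 100% of complete coding TPM on 1 form in the RSEM-layout table. This held for 10 members in the RSEM-layout table, or 23.8% of the 42 detected, where 18.6% of all detected nuclear protein-coding genes met it. Among them were Atp2b1, Atp2b2, Atp2b4, Slc4a4, Slc8a1, Slc8a2, Slc9a7, Slc12a5 and Slc24a2. With kallisto, 15 members met it, and 9 met it in both. The share over all genes was not counted with kallisto, so 18.6% is no measure for these 15. Since several annotated transcripts encode the same protein, levels were then summed over transcripts with an identical complete coding sequence, a step chosen after the values had been seen.

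For Atp2a2 the 1044-residue form, the SERCA2b of most tissues, held 80.4% ± 1.70 (SD, n = 2) of complete coding TPM. The 998-residue form, the SERCA2a known from heart and slow muscle, held 19.6% ± 1.70. With kallisto the shares were 77.0% ± 0.910 and 23.0% ± 0.910. The 1044-residue sequence is carried by 2 transcripts, coding Atp2a2-201 and Atp2a2-203, which the annotation classes as nonsense-mediated decay. Atp2a2-203 had 133 and 141 TPM, more than the 56.7 and 57.7 TPM of Atp2a2-201 in the RSEM-layout table. By kallisto this order was reversed, with 78.0 and 78.3 TPM for Atp2a2-203 and 89.0 and 92.5 TPM for Atp2a2-201. Both forms share their first 2983 coding bases, of which the last 12 are given in lower case, followed by the bases of each form's own end in capitals. The end of Atp2a2-201 is cut to its first 48 of 149 bases, and that of Atp2a2-202 is complete without its stop codon and follows an exon junction.
Atp2a2-201, chr5:122457255-122457314, minus strand: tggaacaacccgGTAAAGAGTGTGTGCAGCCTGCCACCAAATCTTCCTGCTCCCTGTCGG
Atp2a2-202, minus strand: tggaacaacccgCAATACTGGAG

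In the plasma membrane pumps, splicing near the 3′ end of the coding region makes the a and b forms, which differ in their calmodulin-binding tail. Atp2b1-201 of 1220 residues, the b form, was the only complete coding form with a level, and it held 35.4% and 36.7% of the gene's TPM, the rest lying on incomplete or non-coding entries. For Atp2b3 the 1173-residue a form held 81.8% ± 3.73 of complete coding TPM and the 1220-residue b form 13.4% ± 3.52. Kallisto gave 73.0% ± 2.02 and 14.3% ± 4.81. A further form of 1144 residues held 4.78% ± 0.202, and 12.7% ± 2.79 by kallisto. In replicate 1 by kallisto it was above the b form, at 14.7% against 10.9%. The own ends of the a and b forms start as follows, in capitals throughout, each from 1 exon.
Atp2b3-203 (a form), chrX:73559866-73559913, plus strand: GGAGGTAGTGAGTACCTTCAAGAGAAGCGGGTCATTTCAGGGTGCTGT
Atp2b3-202 (b form), chrX:73570236-73570283, plus strand: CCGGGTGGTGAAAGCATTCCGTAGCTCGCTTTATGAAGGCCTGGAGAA
For Atp2b4 the forms of 1166 and 1172 residues held 56.6% ± 4.06 and 29.0% ± 4.34, and the 1205-residue b form held 20.3% in replicate 1 and 7.54% in replicate 2. By kallisto the forms of 1166 and 1172 residues held 50.8% ± 5.04 and 31.1% ± 4.47, and the b form 23.1% and 9.48%. For Atp2b2 the 1198-residue form held 70.9% ± 3.65, and the 1243-residue form, which carries an insert of 135 coding bases in the first cytosolic loop, held 17.2% ± 2.34. A 1154-residue form, on a transcript of the nonsense-mediated decay class, held 11.9% ± 1.31. By kallisto these shares were 61.6% ± 2.57, 22.8% ± 1.59 and 15.6% ± 0.980.

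**Figure D3:**
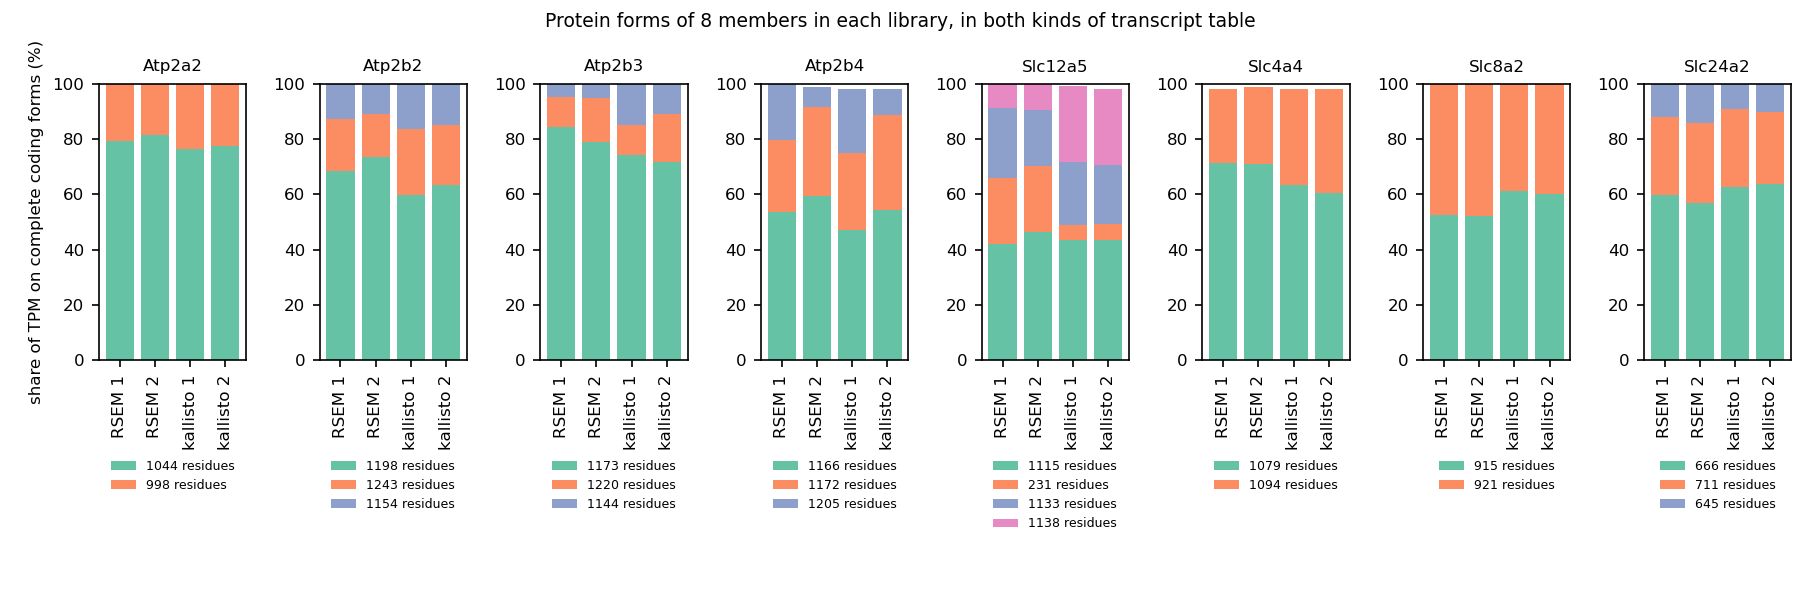
Share of each protein form in the TPM on complete coding transcripts (percent, stacked bars, forms named by their length in residues), in replicates 1 and 2 of the RSEM-layout and kallisto-layout transcript tables. Forms under 5% in both tables are left out. The leading form is the same in all 4 columns for each of the 8 genes.

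Slc12a5 is read from alternative first exons that give KCC2 proteins with different N-termini. The start of the KCC2a kind is given with its start codon in capitals, because reads on these bases separate it from KCC2b.
Slc12a5-209 (KCC2a), chr2:164960883-164960942, plus strand: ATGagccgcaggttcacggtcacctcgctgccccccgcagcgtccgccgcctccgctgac
Transcripts with the KCC2b start, that of Slc12a5-201, held 66.0% of complete coding TPM in replicate 1 and 70.4% in replicate 2 of the RSEM-layout table. With kallisto they held 48.9% and 49.9%, so the kallisto-layout table put both starts at nearly the same level. The difference lies on 2 transcripts. The 231-residue Slc12a5-208 had 32.9 and 34.7 TPM in the RSEM-layout table against 6.15 and 7.19 TPM with kallisto. Slc12a5-209 had 11.7 and 13.8 TPM against 30.7 and 32.8 TPM. The full-length KCC2b transcript Slc12a5-201 was alike in both, at 44.2% ± 3.13 and 43.4% ± 0.0281 of complete coding TPM.

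Slc4a4 transcripts of the 1079-residue B form held 71.0% ± 0.257 of complete coding TPM and the 1094-residue C form 27.5% ± 0.857. Kallisto gave 61.8% ± 2.06 and 36.4% ± 2.26. Complete coding forms held a mean of 85.2% of the Slc4a4 TPM in the RSEM-layout table and 55.3% by kallisto. Slc8a2 had 52.4% ± 0.0851 on the 915-residue form and 47.6% ± 0.0851 on the 921-residue form, and by kallisto 60.6% ± 0.745 and 39.4% ± 0.745. For Slc24a2 the 666-residue form held 58.3% ± 2.17 and the 711-residue form 28.6% ± 0.744, and by kallisto 63.1% ± 0.737 and 27.3% ± 1.67. For Slc8a1 the 970-residue forms were not split alike in both libraries of the RSEM-layout table. There, Slc8a1-203 went from 22.5 TPM in replicate 1 to 0 in replicate 2 while Slc8a1-201, of the same length and different over a stretch of 21 coding bases, went from 1.32 to 24.9 TPM. Slc8a1-202 has the same coding sequence as Slc8a1-201, and together they went from 9.28 to 34.2 TPM in that table. By kallisto Slc8a1-201 and Slc8a1-202 together had 20.8 and 25.4 TPM. Slc8a1-203 had 2.59 TPM by kallisto in replicate 1 and was near 0 in replicate 2. The 958-residue form of Slc8a1 was steady at 49.5% ± 1.22 of complete coding TPM, and 53.9% ± 0.453 by kallisto. Complete coding forms held 53.6% and 56.1% of the Slc8a1 TPM in the RSEM-layout table.

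Not all of a gene's TPM lay on transcripts that the annotation calls protein-coding. The median protein-coding share was 85.8% over detected members and 88.2% over all detected nuclear protein-coding genes. It was under 50% for 3 of 42 detected members (7.14%), where 10.6% of all detected genes fell under it. In Slc4a3 the coding share was 9.58% and 19.1%, and transcripts of the nonsense-mediated decay class held 59.4% and 54.0%. In Slc4a7 the coding share was 32.9% and 37.3%, with 41.1% and 42.2% on retained-intron transcripts. In Atp2a2 it was 43.6% and 41.5%, with 54.4% and 57.1% on the decay class, to which Atp2a2-203 with its complete coding sequence is assigned. The coding share of Atp2a2 depends on the table: by kallisto its mean was 63.4%, while the mean of Slc4a10 was under 50% there, at 42.1%. Slc12a7 had 70.2% in replicate 1 and 28.7% in replicate 2 by kallisto, so its side of 50% depends on the library.

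**Figure D4:**
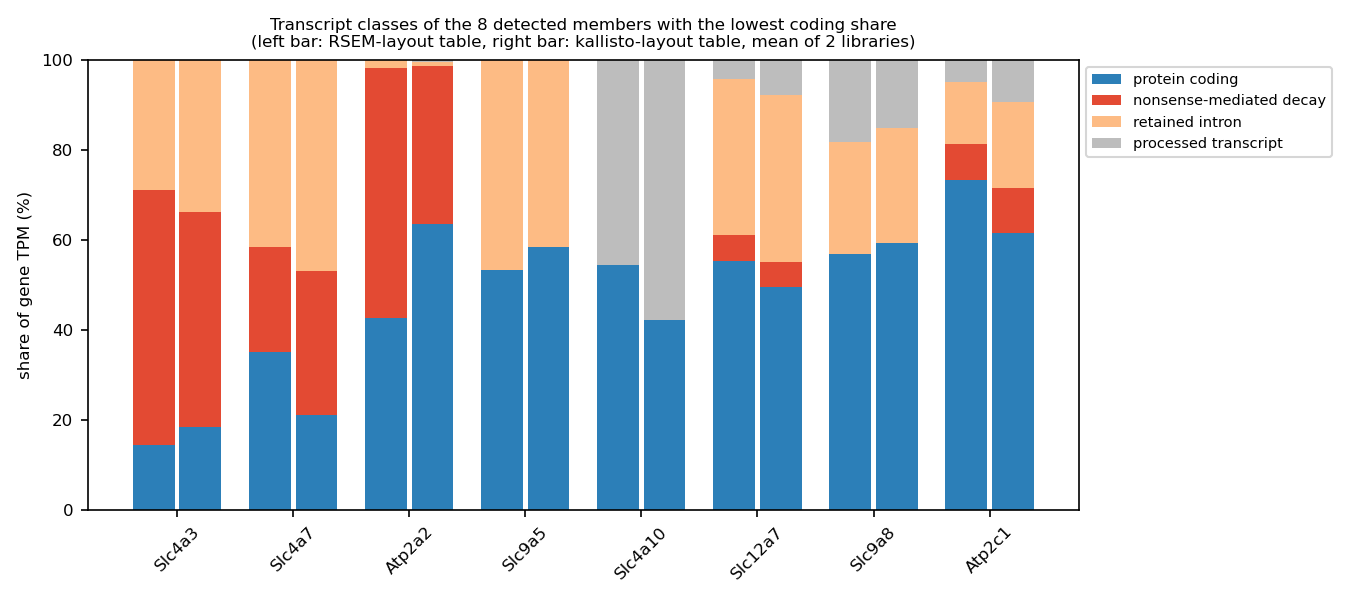
Share of a gene's TPM by annotated transcript class (percent, stacked bars, mean of both libraries) for the 8 detected members with the lowest coding share, with the RSEM-layout table on the left of each pair and the kallisto-layout table on the right. Slc4a3 and Atp2a2 stand out by the nonsense-mediated decay class, at 56.7% and 55.7% in the RSEM-layout table.

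Since there is 1 group, the libraries were compared only to show how far a member varied between replicates. Ratios of replicate 2 to replicate 1 were taken on TMM-scaled counts, on the log2 scale, for genes that averaged 100 expected counts or more. The 42 members that passed this filter are the 42 detected ones, and 14 members fell below it. No member differed by 2-fold or more, where 0.29% of all 13097 genes did. Slc12a7 was the only member past a log2 ratio of 0.32 in either direction, where 6.05% of all genes were (3.94% lower and 2.11% higher in replicate 2). It had 234 reads in replicate 1 and 200 in replicate 2, a log2 ratio of -0.41, though its TPM was the same to within 0.0212 (SD). The median log2 ratio was 0.06 over the 42 members and 0.03 over all genes, with 25 members above 0 and 17 below. The share of all genes above 0 was not counted, so this split is no result about the members.

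A few members known from neurons and from glia, named here after their values were seen, are set beside the marker lists, and none of them passed 0.32. Atp1b1 had a log2 ratio of 0.15, Slc8a2 0.20 and Slc12a5 0.07, while Slc9a5, known from brain, had -0.03, Slc8a3 -0.05 and Slc24a4 -0.06. Atp1b2 had -0.12, Slc4a4 -0.11 and Slc12a2 -0.11. Among the cell type marker lists, 9 of 10 pan-neuronal markers were higher in replicate 2, with a median of 0.14, and 10 of 10 astrocyte markers were lower, with a median of -0.11. Oligodendrocyte markers had a median of -0.30 (10 of 10 lower) and microglial markers -0.15 (9 of 10 lower). The part of these shifts in the members' ratios was not tested. Between the same libraries the ratio of Atp1b1 to Atp1b2 went from 3.13 to 3.91.

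Choroid plexus and neighbouring tissue differed more between libraries. The choroid plexus list was lower in replicate 2 in 6 of 6 markers with enough counts, with a median log2 ratio of -0.88, and Ttr went from 426 to 146 TPM. The summed level of the 12 listed choroid plexus genes was 599 TPM in replicate 1 and 252 TPM in replicate 2. Slc4a5, the bicarbonate transporter known from this epithelium, went from 103 to 50 reads, a log2 ratio of -1.20 below the count filter. Slc4a2, also known from choroid plexus, had 1083 and 991 reads and a log2 ratio of -0.32, just inside the limit. Slc4a10, known from neurons as well as choroid plexus, had 6094 and 7615 reads and a log2 ratio of 0.13. Thalamus markers had a median of -0.55 (8 of 8 lower) and red blood cell markers -0.32 (5 of 6 lower). Whether tissue outside the hippocampus contributed to any member's level was not tested. The 10 hippocampal pyramidal and granule cell markers were all detected, with summed levels of 325 and 352 TPM.

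**Figure D5:**
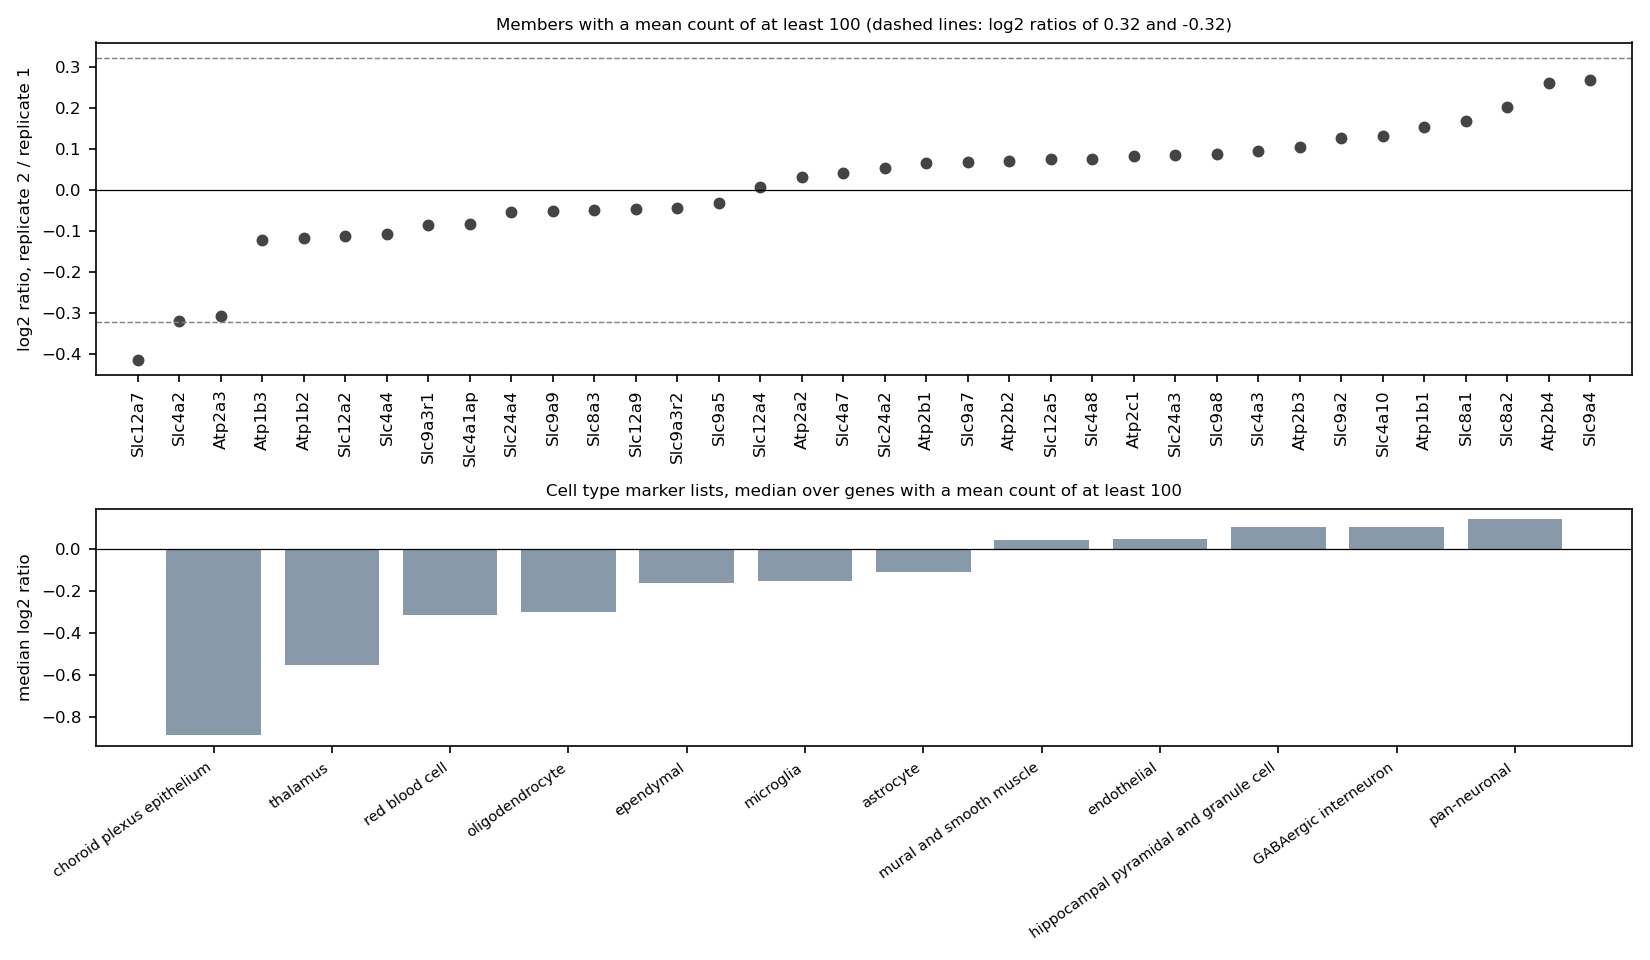
Top, log2 ratio of replicate 2 over replicate 1 (TMM-scaled counts) for 36 of the 42 members with a mean count of at least 100, in order, with dashed lines at 0.32 and -0.32. Bottom, median log2 ratio of each cell type marker list with at least 3 such genes. Slc12a7 lies below the lower line, and the choroid plexus list has the lowest median, -0.88.

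The 2 kinds of table were compared gene by gene after centring on the median ratio of all detected genes. Of the detected members, 0 differed by 1.5-fold or more in both libraries, where 2.4% of all detected nuclear protein-coding genes did. Before centring, the kallisto-layout level was lower than the gene-table level for 32 of the 42 members and higher for 10. The share of all genes with a lower kallisto-layout level was not counted. Over all detected nuclear protein-coding genes the median ratio was also below 1, at 0.959 in replicate 1 and 0.943 in replicate 2.

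Genes that regulate these transporters or are related to them were taken from lists of 53 symbols, of which 51 were matched and 39 detected. None of the 35 with enough counts passed a log2 ratio of 0.32 between replicates. Among the FXYD subunits that tune the Na,K-ATPase, Fxyd1 (phospholemman) was highest with 130 and 115 TPM, followed by Fxyd7 with 44.3 and 47.5 TPM. In the WNK kinase pathway that phosphorylates Slc12 cotransporters, Wnk1 had 97.7 and 93.2 TPM, and Cab39, which activates the downstream kinases, had 65.8 and 58.4 TPM. Of 5 listed small proteins that bind SERCA pumps, 3 were matched (Pln, Sln and Mrln) and none of these was detected. Erln and Arln had no match by symbol, so their levels are not known here. Pln (phospholamban), an inhibitor of the pump, had 0.39 and 1.02 TPM, and Mrln 0 and 0.29 TPM. Calmodulin, which activates the PMCA pumps, was abundant, with Calm2 at 776 and 853 TPM. Of the carbonic anhydrases, which supply bicarbonate, Car11, an inactive relative, had 70.9 and 69.5 TPM and Car2 had 61.0 and 62.9 TPM. Sgk1, a kinase that acts on sodium/hydrogen exchange, had 79.5 and 70.5 TPM, and Chp1, a partner of sodium/hydrogen exchangers, had 65.9 and 64.9 TPM. Among related pumps, the lysosomal polyamine exporter Atp13a2 had 68.2 and 68.7 TPM and Atp13a3 had 24.6 and 29.5 TPM.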

How the data were processed

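Total RNA-seq was measured in 2 libraries of 1 group. Library input was 300 ng of RNA, per the labels, which also name ERCC spike-ins, ribosomal RNA reduction and a directional kit. The authors deposited expected counts and TPM per gene and per transcript in the layout of RSEM, on mm10 with GENCODE M21, and a transcript table in kallisto's layout with estimated counts and TPM. The deposited posterior SD of the count was read as a score. Aligner and program versions: not given in the sources used here. Libraries held 27816845 and 32316737 expected counts. The limit for a count of 0 was 3 counts, and it covers counting error only. A further 26249 rows without a gene name held 183 and 213 counts and were left out, and spike-ins held 0.481% and 0.454%.

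Expected counts were rounded and scaled by TMM in edgeR 4.0.16, with a prior count of 2 on the log2 scale. DESeq2 1.42.0 size factors, library size, ERCC scaling, another prior count, other filters, the kallisto-layout tables and each replicate alone were alternatives. The ratio step was run on simulated data with a spread and changes set in advance. That checks the calculation and says nothing about the spread of these libraries. With 1 group no test was run. Coding sequences were cut from the GENCODE M21 transcripts with the annotation's reading frames, and identities come from global alignments. The members and lists were chosen with earlier results of these data known. The rule names every detected member, members past a log2 ratio of 0.32 between replicates, past 1.5-fold between tables or with a second isoform, and the 2 highest genes of each regulator list; some of these genes, 1 planned share and some sequences are not reported here. R 4.3.3 and Python 3.11.15 were used.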

Additional observations from a re-analysis of the deposited data

How the results depend on the processing

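The number of detected members stayed within 1.5 times of 42 under every alternative run. Counting only protein-coding transcripts gave a median member level of 16.6 TPM, a beta to alpha ratio of 0.798, an Atp2b2 share of 20.1% and a Slc12a5 to Slc12a2 ratio of 7.21. TPM rescaled over nuclear protein-coding genes gave a median of 44.0, and single replicates gave 19.1 to 20.98. With kallisto the beta to alpha ratio was 1.02 and Slc12a5 to Slc12a2 was 7.16. The count of members past 2-fold became 2 with a mean count of at least 10 (Atp2a1 and Slc4a5) and 3 without a filter (also Slc4a1). The count past a log2 ratio of 0.32 was 3 by library size alone (Atp2a3, Slc4a2 and Slc12a7), 2 by ERCC spike-ins (Slc9a4 and Slc12a7), 2 with kallisto counts (Slc4a2 and Slc12a7), 2 on TPM + 1 (Atp2a3 and Atp2b4, without Slc12a7), 4 at 10 counts and 7 without a filter. For these other filters and scalings the share over all genes was not counted, so the counts are no result about the members. Second isoforms numbered 19 at a share of 10% and 3 at 30%, and the share over all genes was not counted at these limits. From replicate 2 alone 1 member, Slc4a4, passed 1.5-fold between tables, and from replicate 1 alone 0. The share over all genes was not counted for single replicates. The causes were not tested. Of the levels of the 42 detected members and the leading protein forms, many moved by more than 1 SD in the kallisto-layout table, which with 2 libraries is a narrow limit. No paired analysis was possible because there is only 1 group. Depth limits members under 100 counts, and 2 libraries limit every SD.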

Other observations

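Some members lie close together in the genome, and genes between them were not looked for. Slc9a4 and Slc9a2 are 49.8 kb apart on chromosome 1, on the same strand, with mean levels of 6.89 and 7.91 TPM. Slc24a5 and Slc12a1 are 63.8 kb apart on chromosome 2, with mean levels of 0.43 and 0.095 TPM.

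Protein identity between Slc12a5 and Slc12a2 was 35.2%, while pairs among Slc12a4, Slc12a5 and Slc12a7 were 70.5% to 76.1% identical. Slc12a8, not detected in the gene table, averaged 1.84 TPM by kallisto, beside 18 and 22 gene-table reads.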
